A study of Homo sapiens with 4 samples.

Results

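The 9 genes described here are STAT2 and IRF9, transcription factor subunits of the interferon response, and ISG15, IFI6, IFIT1, IFITM1, IFITM2, IFITM3 and BST2, which interferons induce. They were chosen by name, as the rows whose symbol equals one of these names, and they are 9 of the 62696 genes in the count tables. The cells were NT2 (NTERA-2), an established human embryonal carcinoma line. The labels give 1 library of cells with an empty vector, whose genotype is given as wild type and which is called the control below, and 3 libraries of cells with a HYDIN2 knockdown, numbered 1 to 3. HYDIN2 is a partial copy of the cilia gene HYDIN. All libraries were made from total RNA after removal of ribosomal RNA, and the labels name no interferon or other treatment. How the knockdown was made is not given, nor whether the 3 knockdown libraries came from separate cultures, so their spread may be technical. Inside the tables, per the file headers, counts stand under LacZ and GKAP_KIF27 set names that the labels do not use, so the 3 libraries are called labelled knockdown replicates throughout.

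Type I interferons bind the receptor IFNAR1 and IFNAR2, whose kinases JAK1 and TYK2 phosphorylate STAT2. STAT2 and IRF9 are parts of the complex ISGF3, which binds the interferon-stimulated response element (ISRE) in front of its target genes. The targets are antiviral: ISG15 is a ubiquitin-like modifier, IFIT1 binds viral RNA that lacks host cap methylation, IFI6 is a small membrane protein, the IFITM proteins block fusion of viruses with cell membranes, and BST2 (tetherin) holds budding virus at the cell surface. Pluripotent cells are known to respond weakly to interferon, and to keep some of these genes, IFITM genes among them, on without it.

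The promoters show what most of these genes share. RefSeq promoter windows (GRCh38.p14, 250 bases before to 50 after the annotated start, 300 in all) were matched by symbol for 8 of the 9 genes, all but IFITM2. The core of the ISRE was searched as GAAA, any 2 bases and GAAA again, or on the other strand TTTC, any 2 bases and TTTC. It was found in 6 of the 8 windows (75%), against 1255 of 35116 RefSeq promoters (3.57%) and 36 of 94 promoters of other interferon pathway genes (38.3%). The stretches that hold every match are printed on the strand of the gene, with matches in capitals and 15 bases on either side.
ISG15 (chr1:1013369-1013414, plus strand): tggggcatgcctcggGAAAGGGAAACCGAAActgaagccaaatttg
IFI6 (chr1:27672261-27672363, minus strand): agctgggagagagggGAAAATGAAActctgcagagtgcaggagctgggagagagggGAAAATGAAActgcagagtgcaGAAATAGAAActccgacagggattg
IFIT1 (chr10:89392492-89392544, plus strand): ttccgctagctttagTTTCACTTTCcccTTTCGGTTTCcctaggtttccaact
IFITM1 (chr11:313985-314058, plus strand): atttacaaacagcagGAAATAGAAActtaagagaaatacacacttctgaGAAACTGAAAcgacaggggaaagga
IFITM3 (chr11:320871-320927, minus strand): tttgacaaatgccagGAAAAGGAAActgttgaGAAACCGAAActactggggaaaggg
BST2 (chr19:17405730-17405775, minus strand): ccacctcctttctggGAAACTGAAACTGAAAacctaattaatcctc
In ISG15 and BST2 the pair of matches overlap each other. IFI6 held 3 matches and the others 2 each. The first match began 156 bases before the start in IFI6, 130 in BST2, 116 in IFIT1 and 113 in ISG15, but 52 in IFITM3 and 40 in IFITM1. These letters did not occur in the windows of STAT2 and IRF9. The gamma-activated site (GAS), another interferon response motif, searched as TTCNNNGAA, which reads the same on both strands, occurred in IRF9, IFITM1 and BST2, or 3 of 8 windows (37.5%), against 7.66% of all promoters and 22 of 94 promoters of other pathway genes (23.4%). In IFITM1 and in BST2, 1 GAS match overlapped an ISRE match. A match describes letters and is not evidence of binding.

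The libraries held 25181737 counts for the control and 28552070 to 62904698 for the labelled knockdown. HYDIN2, the targeted gene, had 12 counts in the control and 150, 112 and 11 in replicates 1, 2 and 3, or 0.50, 2.41, 1.88 and 0.352 CPM. It was thus higher than the control in the libraries labelled knockdown replicates 1 and 2, against their label, with ratios of 4.82 (95% counting interval 2.11 to 13.5) and 3.75 (1.62 to 10.7), and in replicate 3 the ratio was 0.704 (0.180 to 2.7). Levels are given in CPM, the usual unit of counts relative to the library total, here scaled between libraries. Markers of embryonal carcinoma were abundant, with the exception of ZFP42, which had 2 to 4 counts per library. The 12 summed to 7209 CPM in the control and to 7362, 7595 and 4325 CPM in replicates 1, 2 and 3. Replicate 3 thus stood below the other libraries. The 8 leukocyte markers summed to 3.67 CPM in the control and 1.25 to 4.71 CPM in the others, and PTPRC had 0, 0, 6 and 0 counts. The 8 neural markers summed to 191 CPM against 321 to 362 CPM and the 6 endothelial markers to 80.7 against 136 to 186 CPM, so both were higher in all labelled knockdown libraries. The 8 fibroblast markers summed to 504 CPM against 421 to 645 CPM. The part of these markers in the results below was not tested, and in bulk RNA fewer cells of a type and less RNA per cell cannot be told apart.

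Among the 9 genes, IFITM3 stood highest and IRF9 was the only one below 1 CPM in every library. ISG15, IFI6 and IFIT1 were below 1 CPM in replicate 3 alone. To compare genes, CPM was divided by the longest annotated transcript in kilobases. In the control IFITM3 had 508 CPM per kb, BST2 82.3, IFITM2 68.4, IFITM1 67.9, STAT2 10.1, ISG15 2.86, IFI6 1.88, IFIT1 0.578 and IRF9 0.136. In the labelled knockdown libraries the means per kb were 295 ± 36.8 for IFITM3, 73.1 ± 12.9 for IFITM2, 33.8 ± 6.58 for IFITM1, 27.3 ± 2.05 for BST2 and 5.89 ± 2.13 for STAT2 (SD, n = 3). Below these stood ISG15 at 1.38 ± 0.493, IFI6 at 1.32 ± 0.537, IRF9 at 0.294 ± 0.158 and IFIT1 at 0.267 ± 0.0563 (SD, n = 3). BST2 was second in the control and below both IFITM1 and IFITM2 in the mean of the labelled knockdown libraries. IFITM1 had 30.6, 41.3 and 29.4 CPM per kb in replicates 1, 2 and 3, each above BST2 at 26.3, 29.7 and 26.0. The means of the neighbours ISG15 and IFI6, and of IRF9 and IFIT1, differed by less than their spread. Dividing by the merged exon length instead swapped neighbours only, IFITM1 with IFITM2 in the control and, in replicate 3, IFITM1 with BST2 and ISG15 with IFI6.

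**Figure D1:**
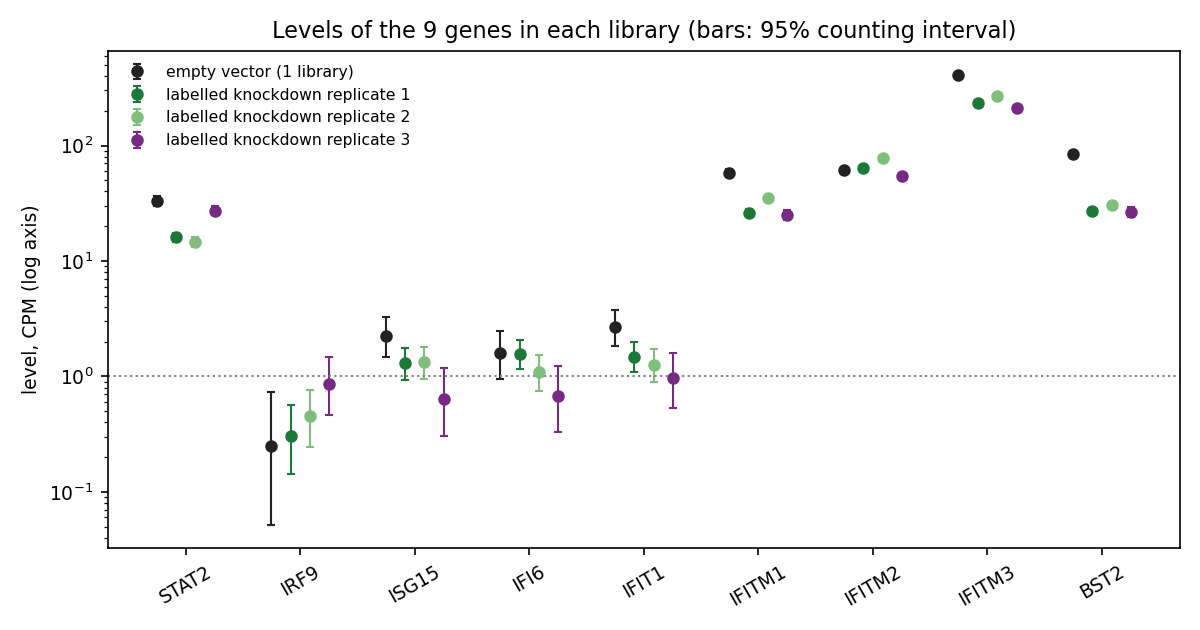
Level of each of the 9 genes in CPM (log axis) in the control, the empty vector library (black), and the 3 labelled knockdown libraries (green, light green, purple). Bars are 95% counting intervals and the dotted line is 1 CPM. BST2 was 83.9 CPM in the control and 26.5 to 30.3 CPM in the others.

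The comparison with the control asked which of these genes differed in each labelled knockdown library. A gene was counted as changed when its log2 CPM in all 3 lay at least 1, or 2-fold, to the same side of the control. Only genes with a mean of the group means of at least 1 CPM were tested, which left 8 of the 9 genes and 15880 genes in all. BST2 alone passed, as lower, and none of the 8 was higher. Over all tested genes 2.72% were lower and 3.65% were higher by this rule. With a single control library there is no replicate check on that side.

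BST2, which tethers virions, spans 17402939 to 17405648 of chromosome 19, minus strand (ENSG00000130303.14). It had 83.9 CPM in the control (95% counting interval 78.8 to 89.2, from 2013 counts). Replicates 1, 2 and 3 had 26.8, 30.3 and 26.5 CPM, a mean of 27.9 ± 2.08 CPM (SD, n = 3). The 3 labelled knockdown libraries lay close together and far below the control. The log2 differences were -1.64, -1.47 and -1.66, a mean of -1.59 ± 0.11 (SD, n = 3), so BST2 was 3.01-fold lower. No 50-base stretch of its longest transcript occurred in the transcripts of another annotated gene. After a smooth trend on transcript length and GC content was removed, the differences were -1.27, -1.19 and -0.89, and BST2 no longer passed, as replicate 3 was short of 2-fold.

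STAT2 (ENSG00000170581.15; chromosome 12, 56341597 to 56360155, minus strand), the STAT that carries the activation domain of ISGF3, had 32.95 CPM in the control. It had 15.98 CPM in replicate 1, 14.6 CPM in replicate 2 and 27.3 CPM in replicate 3. Replicates 1 and 2 were lower by more than 2-fold, with log2 differences of -1.04 and -1.17, and replicate 3 stood between them and the control at -0.27. The ratio of replicate 3 to replicate 1 was 1.71 (95% counting interval 1.5 to 1.95) and to replicate 2 was 1.87 (1.64 to 2.15). The mean of -0.83 ± 0.49 (SD, n = 3) did not pass the rule, and without replicate 3 STAT2 passed, with a mean of -1.15. Its transcript of 3278 nt is near the median length of tested genes, 3519 nt, and trend removal left -0.99, -1.13 and -0.07.

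IRF9 (ENSG00000213928.10; chromosome 14, 24161053 to 24166565, plus strand), the DNA-binding partner of ISGF3, had 6 counts in the control and 19, 27 and 27 in replicates 1, 2 and 3. These counts gave 0.250, 0.305, 0.452 and 0.864 CPM. All 3 labelled knockdown libraries were above the control, but each ratio, 1.22, 1.81 and 3.46, had a counting interval that included 1, which left any difference undetectable at this depth. The interval for replicate 3 ran from 0.958 to 18.8. In GENCODE 29 all of IRF9 lies inside a longer gene on the same strand, AL136295.5, and 100% of the 50-base stretches of the longest IRF9 transcript also occur in that gene. The longer gene (ENSG00000259529.2) had 3, 6, 4 and 14 counts. Reads that fit both genes may not have been counted for either, so the low level of IRF9 is uncertain.

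ISG15, IFI6 and IFIT1, targets often used as readouts of interferon signalling, were all scarce. IFIT1 (ENSG00000185745.10; chromosome 10, 89392546 to 89406486, plus strand) had 2.67 CPM in the control, from 64 counts, and 1.48, 1.26 and 0.960 CPM in replicates 1, 2 and 3. Each labelled knockdown library was lower, with ratios of 0.554 (0.345 to 0.899), 0.471 (0.286 to 0.780) and 0.360 (0.181 to 0.685). Its log2 differences of -0.83, -1.06 and -1.43 had a mean of -1.11 ± 0.30 (SD, n = 3), and replicate 1 alone kept it from passing. IFIT1 lies within the span of LIPA on the other strand. ISG15, IFI6, IFITM2 and IFITM3 also overlap annotated genes on the other strand, and since the strand setting of the counting is not given, these 5 levels may include reads of those genes. At 4613 nt IFIT1 has the longest transcript of the 9 genes, and trend removal changed its mean to -1.22.

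ISG15 (ENSG00000187608.10; chromosome 1, 1001138 to 1014540, plus strand) had 54 counts, or 2.25 CPM, in the control. It had 1.301 CPM in replicate 1, 1.32 CPM in replicate 2 and 0.640 CPM in replicate 3. All 3 were below the control, and replicate 3 was the lowest. The log2 differences were -0.77, -0.75 and -1.74, with a mean of -1.09 ± 0.57 (SD, n = 3), which did not pass. IFI6 (ENSG00000126709.16; chromosome 1, 27666061 to 27672218, minus strand) stood at 1.58 CPM in the control and at 1.57, 1.09 and 0.672 CPM in replicates 1, 2 and 3. Replicate 1 was level with the control, at a ratio of 0.994 (0.575 to 1.79), and only replicate 3, at 0.425 (0.180 to 0.949), had an interval below 1. For IFI6 the mean, -0.57 ± 0.59 (SD, n = 3) in log2, did not exceed the SD.

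The 3 IFITM genes sit side by side on chromosome 11. IFITM3 (ENSG00000142089.17; 319669 to 327537, minus strand), which acts on viruses in endosomes, had 411 CPM in the control and 232, 271 and 212 CPM in replicates 1, 2 and 3. Every labelled knockdown library was lower, and its log2 differences of -0.82, -0.60 and -0.95 had a mean of -0.79 ± 0.18 (SD, n = 3). IFITM1 (ENSG00000185885.17; 313506 to 315272, plus strand), found mostly at the cell surface, had 58.0 CPM against 26.2, 35.3 and 25.1 CPM. Its log2 differences were -1.15, -0.71 and -1.21, with a mean of -1.02 ± 0.27 (SD, n = 3), and replicate 2 alone kept it from passing. IFITM2 (ENSG00000185201.18; 307631 to 315272, plus strand) had 61.0 CPM in the control and 63.8, 77.4 and 54.5 CPM in replicates 1, 2 and 3. The control lay inside their range, and the IFITM2 log2 differences averaged 0.08 ± 0.25 (SD, n = 3), less than their SD.

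The make-up of the family was also compared, which needs no scaling between libraries, and IFITM2 took a larger part of it in every labelled knockdown library. Of the counts of the 3 genes, IFITM2 took 11.5% in the control (95% exact binomial interval 10.7% to 12.3%). The labelled knockdown replicates 1, 2 and 3 gave it 19.8% (19.0% to 20.6%), 20.2% (19.4% to 20.9%) and 18.7% (17.5% to 19.8%). The share of IFITM3 was 77.5% (76.5% to 78.5%) in the control and 72.1%, 70.6% and 72.7% in the replicates. IFITM1 took 11% against 8.13%, 9.21% and 8.60%. A share shows unequal change among the 3 genes and not which of them changed. The genes are near copies: 42.3% of the 50-base stretches of the longest IFITM1 transcript, 15.8% of those of IFITM2 and 20.3% of those of IFITM3 also occur in another annotated gene. The annotated spans of IFITM1 and IFITM2 overlap on the same strand by 1767 bases, so their separate levels are uncertain.

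**Figure D2:**
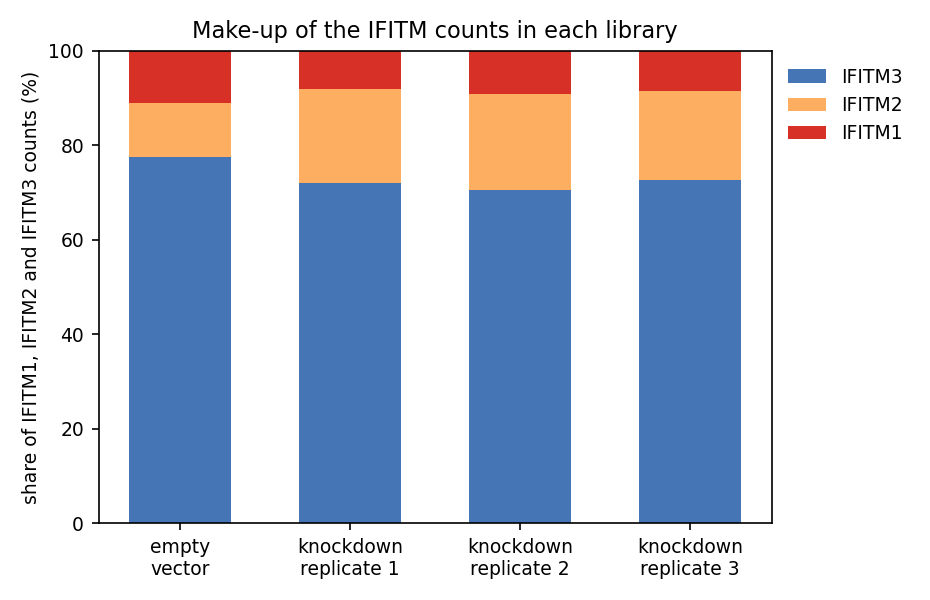
Share of the summed counts of IFITM1 (red), IFITM2 (orange) and IFITM3 (blue) in each library, in percent, with 1 bar per library. IFITM2 took 11.5% in the control and 18.7% to 20.2% in the labelled knockdown libraries.

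Across the group, 7 of the 8 tested genes were below the control in each labelled knockdown library, against 34.2% of all tested genes, and IFITM2 was not. Of the 7, IFI6 was all but level with the control in replicate 1, at a ratio of 0.994 (0.575 to 1.79). The median log2 difference of the 8 was -0.93, and -0.83 when IRF9 was counted too, against -0.02 over all tested genes. It was -0.83, -0.73 and -1.19 in replicates 1, 2 and 3. In 6 of the 8, the counting interval of the ratio lay below 1 in each labelled knockdown library, against 22.2% of all tested genes. The 6 were STAT2, ISG15, IFIT1, IFITM1, IFITM3 and BST2. For ISG15 the interval came near 1, with upper limits of 0.979 and 0.998 in replicates 1 and 2. These intervals were taken without removal of the length and GC trend. None of the 8 had all 3 intervals above 1, against 17.7% of all tested genes. By a 1.5-fold rule in place of 2-fold, ISG15, IFIT1, IFITM1, IFITM3 and BST2 were lower, or 5 of 8, against 9.61% of all tested genes, and 0 were higher, against 10.0%.

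**Figure D3:**
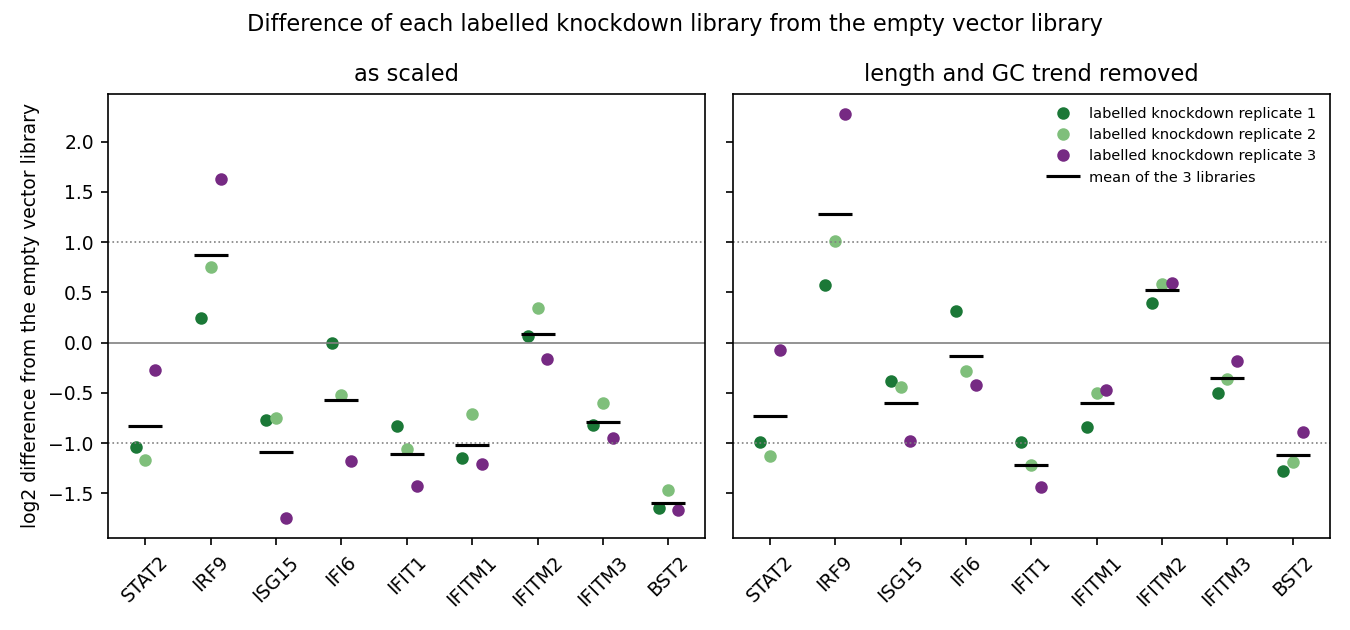
Log2 difference of each labelled knockdown library from the control (points) and their mean (bar), as scaled (left) and after removal of the length and GC trend (right). Dotted lines mark 2-fold. On the left all 3 points of BST2 lie below -1, and on the right its replicate 3 lies at -0.89.

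Transcript length moved with these differences. The libraries differed by length across all tested genes, with Spearman correlations between transcript length and log2 difference of 0.347, 0.298 and 0.460 for replicates 1, 2 and 3 over 15485 genes, which are not independent replicates. Of the 8 tested members, 6 have a longest transcript under 1100 nt, a limit set after their lengths were seen, as do 8.05% of tested genes with a length. All such genes had median log2 differences of -0.31, -0.20 and -0.86 in replicates 1, 2 and 3. By the 2-fold rule 6.98% of them were lower, and by the 1.5-fold rule 20.8%. With the trend removed, the median of the 8 members was -0.60, and 0 of them passed the 2-fold rule, by which 1.45% of all genes were lower and 2.96% higher. Means were then -0.73 for STAT2, -0.60 for ISG15, -0.13 for IFI6, -0.61 for IFITM1, -0.35 for IFITM3 and -1.12 for BST2. The IFITM2 mean rose too, from 0.08 to 0.52 ± 0.11 (SD, n = 3), and so away from 0, with 0.40, 0.59 and 0.59 in the 3 replicates. Only the mean of IFIT1 fell, from -1.11 to -1.22. By the 1.5-fold rule after trend removal, a setting chosen after seeing the data, IFIT1 and BST2 were lower, against 5.93% of all genes, and 0 were higher, against 8.01%.

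**Figure D4:**
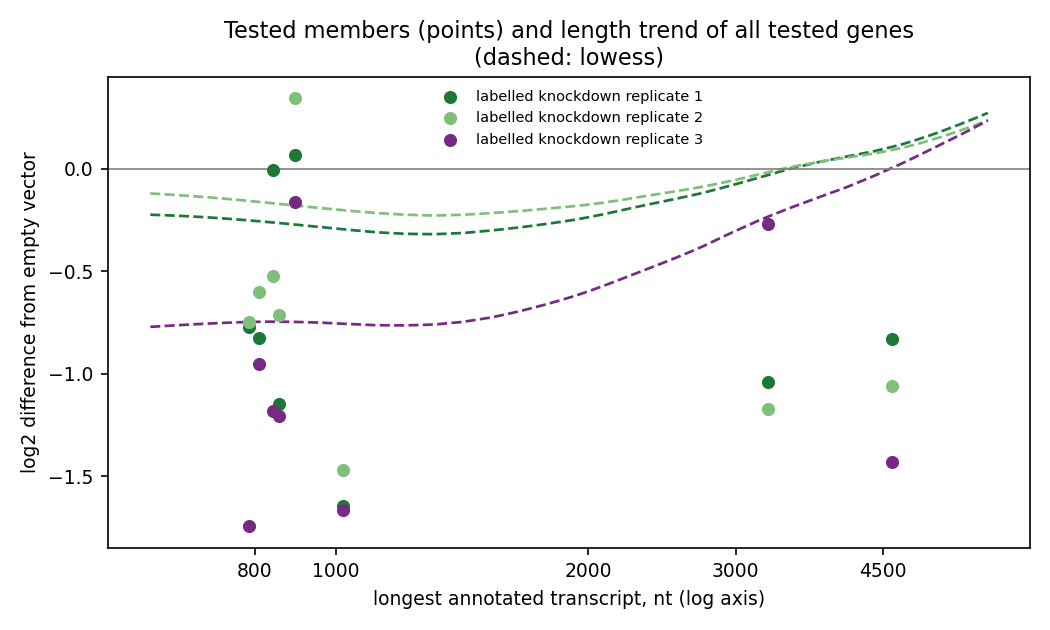
Log2 difference from the control of the 8 tested genes (points, 3 per gene) against the length of the longest transcript (log axis). Dashed lines are the length trend over all tested genes in each labelled knockdown library. At the length of BST2 the trend stood at -0.30, -0.20 and -0.76 in replicates 1, 2 and 3, against -1.64, -1.47 and -1.66 for BST2 itself.

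A test across all genes was also fitted. With edgeR's quasi-likelihood test, after Benjamini-Hochberg adjustment, labelled knockdown against control gave 0 calls among 26029 genes (0.0%), with 3023 at an unadjusted p under 0.05. Adjusted p-values of the 9 genes by edgeR ran from 0.358 for BST2 to 0.915 for IFITM2. This fit takes its spread from the 3 labelled knockdown libraries and sets 1 library against them. limma voom called 0 genes as well, and the Wald test of DESeq2 called 271 of 15725 (1.72%). BST2 was the only one of the 9 among those, with an adjusted p of 0.0181 by DESeq2. The edgeR count was 17 without replicate 1, 39 without replicate 2 and 11177 without replicate 3. Without replicate 3, when 25016 genes were tested, the spread was measured between replicates 1 and 2 alone. Between them, 0.302% of genes differed 2-fold or more.

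The labelled knockdown replicates were also compared with each other. Between replicates 3 and 1, 1 of the 8 tested members, IFI6, differed 2-fold or more, against 21.6% of all tested genes. Between replicates 3 and 2, 0 of 8 did, against 22.9%. Both counts used log2 CPM with a prior count of 2, which left ISG15 just short of 2-fold. By plain CPM, ISG15 in replicate 3 was 0.492 times replicate 1 and 0.484 times replicate 2. Replicate 3 had the highest level of STAT2 and IRF9 among the 3, and the lowest level of the other 7 genes, though for ISG15, IFIT1, IFITM1 and BST2 the counting interval of its ratio to replicate 1 included 1, as did that of its ratio to replicate 2 for IRF9, IFI6 and IFIT1. Replicate 2 was the highest of the 3 for IFITM1, IFITM2, IFITM3, BST2 and, within counting error of replicate 1, ISG15. Its IFITM1 was 1.35 times that of replicate 1 (1.23 to 1.48).

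The rest of the pathway was taken from lists of 121 genes in 7 groups, of which 81 had a mean of at least 1 CPM. By the 2-fold rule 0 of the 81 were higher and 3 were lower, against 3.65% and 2.72% of all tested genes, and the median of their means was -0.02. In replicates 1, 2 and 3 their medians were 0.14, 0.08 and -0.41, against 0.03, 0.05 and -0.15 over all tested genes, so replicate 3 stood apart from the other two. All 12 interferon ligands were below 1 CPM in every library, and 4 had 0 counts throughout. IFNB1, the type I interferon that most cells make first, had 2, 4, 1 and 0 counts. IFNK, the highest of the 12, had 0.333 CPM in the control and 0.0642, 0.0838 and 0.576 CPM in the replicates.

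Of 8 tested receptor chains and kinases none passed, with medians of 0.26, 0.10 and -0.04 in replicates 1, 2 and 3. JAK1, the kinase with the highest level, had 111 CPM in the control and 148, 140 and 113 CPM in the replicates. IFNGR1, a chain of the interferon gamma receptor, had log2 differences of 0.44, 0.51 and -0.41, so it was above the control in replicates 1 and 2 and below it in replicate 3. Besides STAT2, which did not pass either, 5 STAT factors were tested and none passed. Their medians were 0.16, 0.15 and -0.39 in replicates 1, 2 and 3, and the median of their means, -0.28, became 0.11 without replicate 3. STAT6, which acts for interleukin 4, had a mean log2 difference of -0.38 ± 0.20 (SD, n = 3). None of the 5 tested IRF factors passed. Their medians were 0.30, 0.40 and -0.68 in the 3 replicates, and the median of their means, -0.29, became 0.38 without replicate 3 and -0.91 at a mean of at least 5 CPM. IRF3, which switches on IFNB1 after viral RNA is sensed, had 29.9 CPM in the control and 15.7, 16.9 and 14.5 CPM in the replicates. Its mean log2 difference was -0.93 ± 0.11 (SD, n = 3), which trend removal brought to -0.69. IRF2, a factor that can repress interferon targets, had differences of 0.43, 0.40 and -0.13.

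None of the 10 tested sensors and adaptors passed. Their medians were 0.40, 0.28 and -0.20 in the 3 replicates, and the median of their means, 0.18, became -0.07 without replicate 1 or without replicate 2, and -0.02 at a mean of at least 0.1 CPM. MAVS, the mitochondrial adaptor of RNA sensing, had 72.4 CPM against 99.05, 89.5 and 166 CPM, and its mean of 0.65 went to -0.01 with the trend removed. TBK1, the kinase that activates IRF3, had a mean of -0.41 ± 0.21 (SD, n = 3). None of the 12 negative regulators passed, and their median of -0.09 became 0.01 with scaling by total counts only and 0.12 at a mean of at least 5 CPM. PTPN11, a phosphatase, had a mean of 0.36 that trend removal brought to 0.06, and TRIM28, a transcriptional corepressor, one of -0.49 that it brought to -0.24.

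The 41 tested effectors gave all 3 lower genes of the pathway. OAS1, which makes the activator of RNase L, had 6.04 CPM in the control and 2.14, 1.96 and 1.60 CPM in the replicates, a mean log2 difference of -1.66 ± 0.21 (SD, n = 3). UBE2L6, the enzyme that conjugates ISG15, had 38.0 CPM against 16.2, 14.7 and 9.48 CPM, a mean of -1.53 ± 0.41 (SD, n = 3). LGALS3BP, a secreted galectin-binding protein, had 37.2 CPM against 12.5, 12.7 and 12.7 CPM, a mean of -1.56 ± 0.02 (SD, n = 3). With the trend removed OAS1 and LGALS3BP still passed, and UBE2L6 did not. The median of the 41 was 0.00, 0.05 and -0.72 in the 3 replicates, and the -0.15 over their means became 0.00 without replicate 3. The most abundant of them, ADAR, an RNA editing enzyme, had 538 CPM against 763 ± 26.9 CPM (SD, n = 3), with a mean of 0.50 that trend removal brought to 0.12. SHISA5 was the next highest, with 387 CPM against 368, 391 and 188 CPM. Of the genes of these lists with a promoter window, the 24 tested genes with an ISRE core had a median of -0.08 and the 41 without one a median of 0.12, which became -0.01 and -0.04 with the trend removed.

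**Figure D5:**
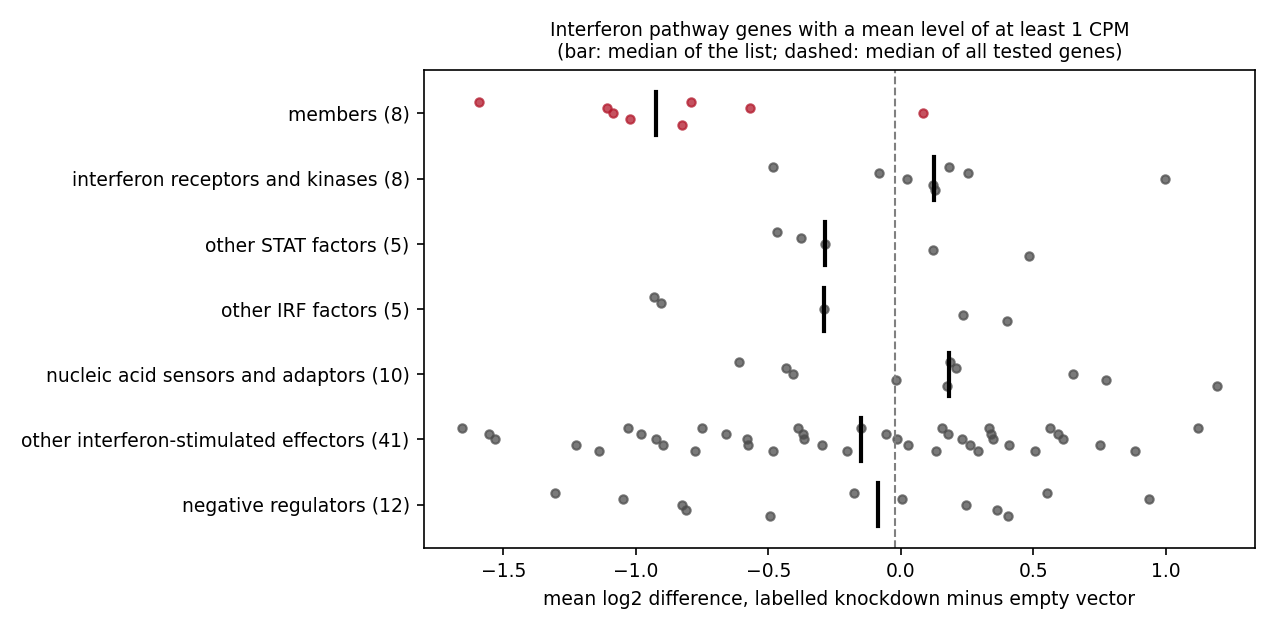
Mean log2 difference of each tested gene of the 9 (red) and of the other pathway lists (grey), with the number of genes in brackets. Bars are medians of a list and the dashed line is the median of all tested genes, -0.02. The median of the 8 tested genes is -0.93, and those of the other lists run from -0.29 to 0.18.

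The genes with the pattern most like that of BST2, the member whose smallest difference was largest, were sought among 9583 protein-coding genes with a mean of at least 10 CPM. Likeness was the Euclidean distance over the 3 log2 differences, so it rests on 4 libraries. The nearest was NCBP2AS2, at a distance of 0.101, with 29.9 CPM in the control and 9.35, 10.4 and 8.93 CPM in the replicates. AFMID followed at 0.124, with 41.1 CPM against 12.6, 14.2 and 13.8 CPM, and LGALS3BP, one of the pathway effectors above, at 0.154. The distances were taken without removal of the length and GC trend. With the trend removed, NCBP2AS2 and AFMID, like BST2, no longer passed the 2-fold rule, and LGALS3BP still did.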

How the data were processed

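Per the labels, total RNA of NT2 cells was depleted of ribosomal RNA and made into strand-marking libraries, 1 for the empty vector and 3 for the labelled HYDIN2 knockdown. The authors deposited raw counts per gene, 1 table per library. The submitters' processing notes name STAR 2.7.11b, featureCounts 2.0.6, DESeq2 and the build GRCh38 (hg38), without their settings. The annotation release and the strand setting are not given in the sources used here. Of 62696 identifiers, 58225 matched GENCODE 29 (GRCh38), which gave coordinates and transcript lengths.

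Counts were scaled with TMM factors (edgeR 4.0.16, R 4.3.3) from genes kept by filterByExpr. Log2 CPM used a prior count of 2. Of nonzero counts, 65.2% to 68.0% were even, so counts may hold both mates of a pair, and they were halved for all counting intervals. These 95% intervals (Poisson, exact, for levels, and Clopper-Pearson for ratios and shares) cover counting error only. A floor of 3 counts was 0.119 CPM in the control and 0.0477 to 0.105 CPM in the others, before scaling. Length and GC trends were removed by lowess (span 0.3, statsmodels 0.14.6). Simulated data were used to test the 2-fold rule, the trend removal and edgeR's quasi-likelihood fit (threshold 0.05). Alternatives were other scalings, filters, prior counts and folds, DESeq2 1.42.0, limma 3.58.1 (voom) and leaving out each labelled knockdown library.

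The members and lists were chosen with earlier results of these data known. Named genes are the 9 members, HYDIN2, per pathway list up to 4 genes passing in each direction and the 2 of highest level, and the 3 genes nearest to the member with the largest smallest difference. One gene that this rule names is not reported here. IFNAR1, IFNAR2 and TYK2 are named as background, and marker genes from lists.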

Additional observations from a re-analysis of the deposited data

How the results depend on the processing

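No paired analysis was possible because 1 control library without a replicate number cannot be matched to 3 numbered ones. With each labelled knockdown library left out in turn, 2 members were lower by the 2-fold rule each time. These were BST2 with IFIT1 without replicate 1, with IFITM1 without replicate 2 and with STAT2 without replicate 3. In the same settings the lower genes over all tested genes numbered 517, 583 and 939, against 432 with every library. By the 1.5-fold rule 5 members were lower, against 9.61% of all tested genes. With the length and GC trend removed 0 were, against 1.45%. With both changes, a setting chosen after seeing the data, 2 were, against 5.93%. Trend removal also moved the members' median to -0.60. Over all genes, the higher and lower numbers were 1605 and 1035 at a mean of at least 0.1 CPM, 377 and 254 at 5 CPM, and 1590 and 1526 by the 1.5-fold rule. Without a labelled knockdown replicate they ran from 578 to 1425 higher and from 517 to 939 lower, both largest without replicate 3. Trend removal gave 224 lower genes, and with the 1.5-fold rule 1240 higher and 919 lower. Of the other pathway genes, 1 was higher at a mean of at least 0.1 CPM. By the 1.5-fold rule 2 of 81 were higher and 11 lower, against 10.0% and 9.61% of all tested genes. Leaving out a replicate gave 0 to 8 higher and 4 to 6 lower pathway genes. edgeR called 17 genes without replicate 1, 39 without replicate 2 and 11177 without replicate 3, and DESeq2 called 271. The cause of these shifts was not tested. Every member kept the sign of its mean under the 9 alternatives run for it, except IFITM2, at -0.06 without replicate 2. Depth limits IRF9, ISG15, IFI6 and IFIT1, each under 100 counts in every library.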
